A study of Mus musculus with 3 samples.

Results

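The regions described here are the places in the genome of fetal liver progenitors where both HNF4A and FOXA2 gave a high-scoring peak of chromatin immunoprecipitation with sequencing (ChIP-seq). They were chosen by the peak score that the authors deposited and by overlap: 1 HNF4A peak and 1 FOXA2 peak that share at least 1 bp, with an HNF4A score of 33 or more and a FOXA2 score of 22 or more, and no region of the input list within 10 kb. There were 536 such pairs among 2879 overlapping pairs in all. They contain 533 different HNF4A peaks and 535 different FOXA2 peaks, because a broad peak of one factor sometimes met 2 peaks of the other, and they form 532 separate sites.

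The cells were hepatoblasts of wildtype C57BL/6 embryos at embryonic day 14.5, pooled over livers and enriched with magnetic beads for the surface protein DLK1. Each factor was precipitated in 1 library, and a further library of unprecipitated chromatin served as input. With 1 library for each, no value below has a replicate check, so the values describe these lists of peaks and no test was made. Shares of regions carry 95% Wilson intervals. The intervals cover counting error only, and they treat regions as independent although some lie side by side.

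HNF4A is a nuclear receptor that binds DNA as a homodimer, and it is needed for the expression of a large part of the hepatocyte programme, including plasma proteins and lipid-handling genes. FOXA2 is a forkhead factor whose DNA-binding domain resembles that of linker histones. It can bind its site on nucleosomes, and with FOXA1 it is required for the liver to be specified from the foregut endoderm. Hepatoblasts give rise to both hepatocytes and bile duct cells, and enhancers bound by several such factors together are a common feature of liver genes. Gene annotation and genome sequence were not used here for the genome build of these files (mouse mm9), so the regions are given by position, and no gene or motif is assigned to them.

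Both thresholds were passed by about the same share of each list, a match set by where the rule places them. A score of 33 or more was reached by 2993 of 11703 HNF4A peaks (25.6%), and a score of 22 or more by 2395 of 9338 FOXA2 peaks (25.6%). No source used here defines the score, so scores are compared within a list and never between the 2 factors. Of the strong HNF4A peaks 17.8% (16.5 to 19.2%) stood in a strong pair, 17.7% (16.4 to 19.1%) met only a weaker FOXA2 peak, and 64.5% (62.7 to 66.1%) met none. Of the strong FOXA2 peaks 22.3% (20.7 to 24.0%) stood in a strong pair, 29.0% (27.2 to 30.9%) met only a weaker HNF4A peak, and 48.6% (46.6 to 50.6%) met none. The 11703 HNF4A and 9338 FOXA2 peaks of the full lists formed only 2879 overlapping pairs. Most peaks of each full list thus met none of the other factor. Even if no peak was shared between pairs, the share meeting none was higher in each full list than among its strong peaks. Strong peaks of both factors thus met the other factor more often than their lists as a whole. A peak absent from a list is a peak below an unknown threshold, and it does not show that the factor was absent.

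The input rule left 2857 overlapping pairs, and the strong ones made up 18.8% of these, a share fixed by the choice. Only 1 pair with 2 strong peaks was dropped. It lay at chrY:2878304-2878577 with an HNF4A score of 33 and a FOXA2 score of 35, and an input region was 837 bp away. The nearest input region to any retained strong pair was 43316 bp away, and the median distance was 4906866 bp. The remaining overlapping pairs fall in 3 classes that serve as comparison below: 532 pairs strong for HNF4A only, 695 strong for FOXA2 only and 1094 strong for neither.

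Within the strong pairs the HNF4A score ran from 33 to 142 with a median of 46 (interquartile range 39 to 61), and the FOXA2 score ran from 22 to 165 with a median of 33 (26 to 46). An HNF4A score of at least 2 times its threshold was found in 109 pairs, a FOXA2 score of at least 2 times its threshold in 146 pairs, and both in 36 pairs (6.72%). Over the 536 pairs Spearman's rho between the scores was 0.12, and Pearson's r after a log2 step was 0.12. Both lists come from the same cells, and the choice cuts the range of both scores, so this is a description. At the edge of the choice, 23 pairs had exactly the HNF4A threshold score and 40 exactly the FOXA2 threshold score. Just outside it lay 28 pairs with an HNF4A score of 32 and 37 pairs with a FOXA2 score of 21, each with the other factor strong.

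**Figure D1:**
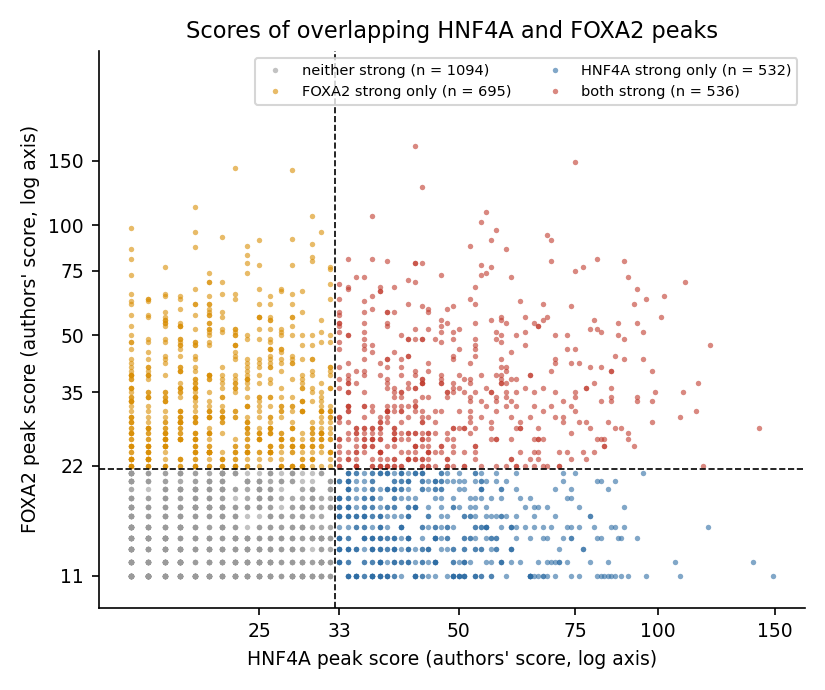
HNF4A score (horizontal, log axis) against FOXA2 score (vertical, log axis) of the 2857 overlapping pairs kept, 1 point per pair, with the thresholds as dashed lines. The 536 strong pairs fill the upper right field, and 36 of them reach at least 2 times both thresholds.

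The pair with the highest HNF4A score lay at chr7:20270683-20271061. Its HNF4A peak scored 142 and its FOXA2 peak 28, with centres 15 bp apart. At the other end, chr1:66947539-66947912 had the highest FOXA2 score of 165 beside an HNF4A score of 43, with centres 21 bp apart. The first had 8 further HNF4A peaks within 12500 bp and the second had 1.

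Regions that were extreme for both factors were found by ranking each pair by the lower of its 2 percentiles within the lists. The first 3 by that measure were on chromosomes 10, 6 and 11, with percentiles of 99.3, 99.2 and 99.1. The fourth, chr6:124442767-124443106, had an HNF4A score of 93 and a FOXA2 score of 67, and its centres differed by 8.5 bp. At chr14:100752033-100752458 the scores were 102 and 64, with the FOXA2 peak wholly inside the HNF4A peak and centres 21.5 bp apart. The sixth, chr17:12985335-12985741, had a score of 81 in both lists and had 2 further HNF4A peaks and 1 further FOXA2 peak within 12500 bp. At chr15:9044034-9044743 an HNF4A peak of 692 bp with a score of 96 met a FOXA2 peak of 450 bp with a score of 63, and the centres were 139 bp apart. The eighth was chr6:90282520-90283029 with scores of 92 and 61. The ninth, chr15:7117901-7118475, scored 77 in both lists and lay 299 bp from another strong pair. The tenth, chr9:42083138-42083500, had scores of 75 and 149. Chromosome 6 held 3 of the 10 and chromosome 15 held 2. Of the 10, 7 had another peak within 12500 bp.

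Centres of the 2 peaks, taken as midpoints because the files give no summits, lay close together in strong pairs. The median distance was 45.25 bp (interquartile range 23 to 79.1 bp). Centres were within 50 bp of each other in 289 of 536 strong pairs, 53.9% (49.7 to 58.1%), against 44.1% of all 2857 overlapping pairs kept. Within 100 bp lay 83.0% of the strong pairs (79.6 to 86.0%), and 16 pairs, 2.99% (1.85 to 4.79%), were more than 200 bp apart. Among all overlapping pairs kept the shares were 72.6% and 6.79%. The offset did not enter the choice of members, apart from the overlap that all classes share.

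Pairs strong for only 1 factor had wider offsets. The median was 58.25 bp for pairs strong for HNF4A only and 58 bp for pairs strong for FOXA2 only. It was 67.5 bp where neither was strong. The share with centres within 50 bp was 43.8% (39.6 to 48.0%), 44.5% (40.8 to 48.2%) and 39.2% (36.4 to 42.1%) in these 3 classes. Strong pairs were therefore above them by 10.1 percentage points (95% interval 4.13 to 16), 9.46 points (3.83 to 15.0) and 14.7 points (9.56 to 19.8).

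Peak width moved with these classes. The median HNF4A width was 423.5 bp in strong pairs, 419.5 bp in pairs strong for HNF4A only, 451 bp in pairs strong for FOXA2 only and 458 bp where neither was strong. FOXA2 widths had medians of 363, 384, 358 and 373 bp in the same order. Among pairs in which both peaks were at most 500 bp wide, 63.2% of 389 strong pairs had centres within 50 bp. This compares with 51.3% of 353 pairs strong for HNF4A only, 59.3% of 413 strong for FOXA2 only and 50.4% of 589 strong for neither. The difference from pairs strong for FOXA2 only was then 3.92 points, and its interval (-2.82 to 10.6) included 0, while the difference from pairs strong for HNF4A only was 12 points (4.84 to 18.9). The part of width in the closer centres was not tested further.

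Within the strong pairs the offset was smaller at higher FOXA2 scores. In 4 groups of 134 pairs ranked by FOXA2 score, the median offset was 53.25, 48.25, 46.5 and 38 bp from the lowest to the highest group. The share within 50 bp went from 47.8% (39.5 to 56.2%) to 62.7% (54.3 to 70.4%), and these intervals overlap. Ranked by HNF4A score the medians were 42, 51, 48 and 42.75 bp, with no order. Widths of the FOXA2 peaks were similar, with medians of 363.5 bp in the lowest and 355 bp in the highest FOXA2 group. Over all 2857 overlapping pairs kept, ranked into 4 groups in the same way, the median offset fell with either score. From the lowest to the highest group it went from 69.5 to 49.25 bp by FOXA2 score. By HNF4A score it went from 70.5 to 53 bp.

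The closest and the widest pairs show the range. Midpoints coincided exactly in 3 pairs, at chr10:114725954-114726327 (scores 33 and 38), chr13:40936776-40937171 (60 and 26) and chr14:66267335-66267716 (33 and 24). The widest offset, 468 bp, was at chr16:72687829-72688767, where the peaks shared only 3 bp and the same FOXA2 peak was also in a second strong pair. The next, 438.5 bp, was at chr10:96148770-96150047, where a single HNF4A peak of 1278 bp met 2 strong FOXA2 peaks. The third, 332.5 bp, was at chr11:57909106-57909777, with 7 bp shared. In the first and the third of these the peaks thus lie side by side and barely touch.

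One factor's peak often enclosed the other. The FOXA2 peak lay wholly inside the HNF4A peak in 186 strong pairs, 34.7% (30.8 to 38.8%), and the HNF4A peak inside the FOXA2 peak in 30 pairs, 5.6% (3.95 to 7.88%). Among all 2857 overlapping pairs kept these shares were 34.5% and 8.68%, so the first was near that of strong pairs. In pairs strong for HNF4A only these shares were 26.1% (22.6 to 30.0%) and 13.2% (10.5 to 16.3%), so fewer FOXA2 peaks lay inside and more lay around the HNF4A peak. In pairs strong for FOXA2 only they were 42.2% (38.5 to 45.9%) and 6.04% (4.50 to 8.07%). HNF4A peaks were the broader ones throughout the lists, with a median of 430 bp against 367 bp for FOXA2. The overlap had a median of 340 bp.

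FOXA2 centres were displaced toward lower coordinates. In 315 strong pairs the FOXA2 midpoint had the lower coordinate, in 218 the higher, and in 3 both were equal. That is 58.8% (54.6 to 62.9%) on the lower side, near the 58.6% of all 2857 overlapping pairs kept. The median signed offset of strong pairs was -17.25 bp. The displacement was of similar size outside the strong pairs. Its median was -20.75 bp for pairs strong for HNF4A only, -15 bp for those strong for FOXA2 only and -17 bp where neither was strong. By chromosome, the median of the strong pairs was below 0 on 17 of 20 chromosomes, and that of the other overlapping pairs on 20 of 21. The edges differed: in strong pairs the narrower FOXA2 peaks started a median of 12 bp above the HNF4A start and ended 43 bp below the HNF4A end. The direction is that of the chromosome coordinate, which has no fixed relation to the direction of a gene or a binding site. The cause was not tested. Offsets measured from the median of the other overlapping pairs gave a median of 43.5 bp in strong pairs, and 54.7% within 50 bp.

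**Figure D2:**
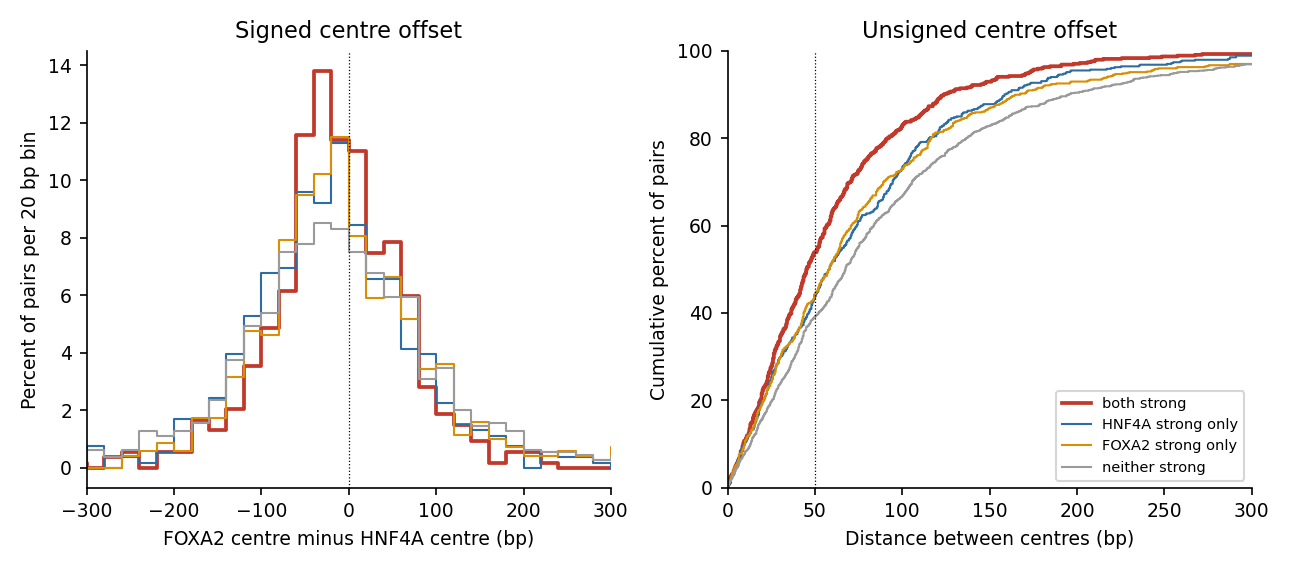
Left, FOXA2 centre minus HNF4A centre in bins of 20 bp, as percent of the pairs in each of 4 classes. Right, cumulative percent of pairs against the distance between centres in bp, with the dotted line at 50 bp. Strong pairs (thick red line) peak just left of 0 and rise fastest, to 53.9% at 50 bp.

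Most strong pairs had other peaks nearby. Another peak of either factor, not touching the pair, lay within 12500 bp of 321 of 536 strong pairs, 59.9% (55.7 to 64.0%), against 54.6% of all overlapping pairs kept. The median distance to the nearest other peak was 8297.5 bp (interquartile range 2158 to 25214 bp). No other peak lay within 12500 bp of 215 pairs, 136 had 1, 92 had 2, 48 had 3 and 45 had 4 or more. Neighbours were of both factors for 144 pairs, HNF4A alone for 134 and FOXA2 alone for 43. The HNF4A list is the longer one, so this does not compare the factors. These counts by number and factor were made for strong pairs only and have no other class beside them.

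The 3 classes with a strong HNF4A peak had nearly equal shares of neighbours, with or without FOXA2. A neighbour within 12500 bp was found for 60.0% (55.7 to 64.0%) of pairs strong for HNF4A only, and for 59.8% (57.6 to 62.0%) of 1920 strong HNF4A peaks without FOXA2 overlap. The difference between strong pairs and the latter was 0.044 points (-4.69 to 4.67). The share was 54.7% (51.0 to 58.3%) for pairs strong for FOXA2 only and 49.3% (46.3 to 52.2%) for pairs strong for neither. It was lowest, 42.0% (39.2 to 44.9%), for 1149 strong FOXA2 peaks without HNF4A overlap, which is 17.9 points (12.8 to 22.8) below the strong pairs. At the shorter distance of 5 kb the share was 42.0% (37.9 to 46.2%) for strong pairs, against 34.4% of all overlapping pairs kept. It was 37.6% (33.6 to 41.8%) for pairs strong for HNF4A only and 39.7% (37.6 to 41.9%) for strong HNF4A peaks without FOXA2 overlap. Pairs strong for FOXA2 only had 32.9% (29.6 to 36.5%), and pairs strong for neither 30.0% (27.3 to 32.8%). Strong FOXA2 peaks without HNF4A overlap had 25.2% (22.7 to 27.7%).

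By factor, a further HNF4A peak lay within 12500 bp of 51.9% of strong pairs (47.6 to 56.1%) and a further FOXA2 peak of 34.9% (31.0 to 39.0%). Among all overlapping pairs kept these shares were 45.2% and 32.1%. They were 51.3% and 34.2% in pairs strong for HNF4A only, and 51.25% and 32.4% for strong HNF4A peaks without FOXA2 overlap. The HNF4A share of strong pairs was thus close to that of both these classes. It exceeded that of pairs strong for FOXA2 only by 8.84 points (3.22 to 14.4). The FOXA2 share of strong pairs differed from that of pairs strong for FOXA2 only by 0.36 points (-4.97 to 5.73).

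**Figure D3:**
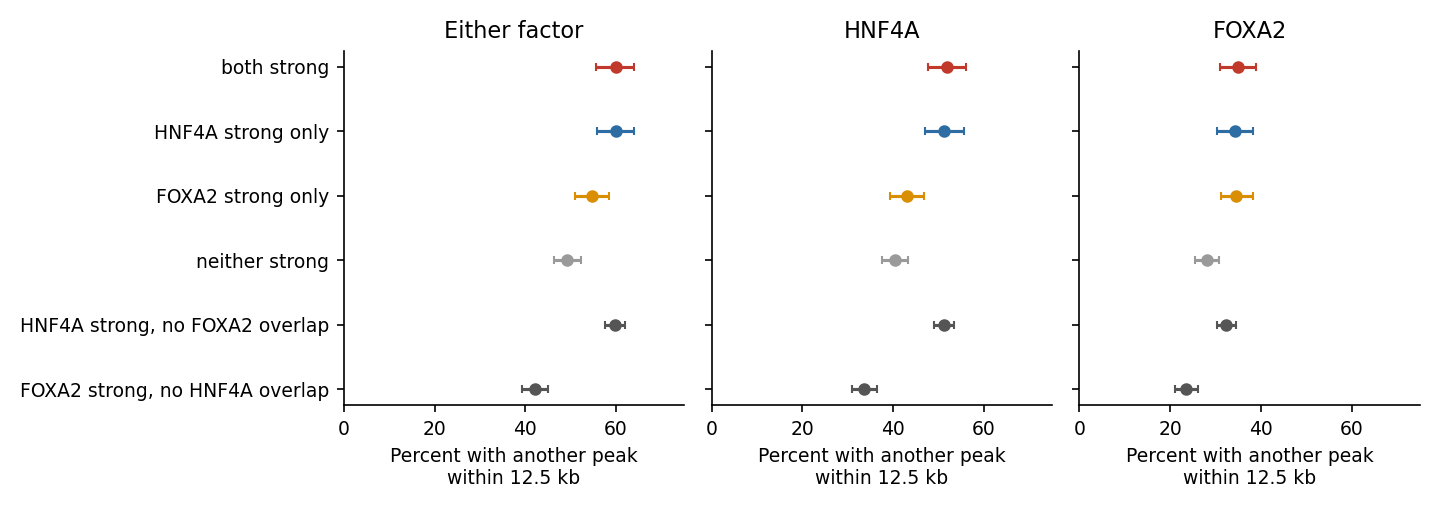
Percent of regions with another peak of either factor, of HNF4A or of FOXA2 within 12500 bp, for the 4 classes of overlapping pairs and for strong peaks of 1 factor without overlap. Points are shares and bars 95% Wilson intervals; the 3 classes with strong HNF4A lie at 59.8 to 60.0% in the left panel.

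The most crowded and the most isolated strong pairs were chosen for description after their values were seen. At chr5:90914643-90915019 (scores 75 and 34) there were 6 further HNF4A and 5 further FOXA2 peaks within 12500 bp. The strong pair with the highest HNF4A score, on chromosome 7, had 8 further HNF4A peaks and no FOXA2 peak within that distance. At chr16:22891713-22892147 (54 and 33) there were 4 HNF4A and 3 FOXA2 neighbours. By contrast, chr3:150028679-150029088 (36 and 28) had its nearest other peak 1149 kb away, and for chr1:69833241-69833623 (50 and 31) the distance was 1070 kb.

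Strong pairs themselves were mostly far apart. Neighbouring strong sites on a chromosome were separated by a median of 2451 kb (interquartile range 698.8 to 6379 kb). For the class strong for HNF4A only, which has nearly the same number of sites (530), the median gap was 2527 kb (646.9 to 5651 kb). Of 512 gaps between strong sites 52 were at most 100 kb, or 10.2%, against 54 of 510, or 10.6%, in that class. Their median gaps thus differed little beside the spread of the gaps.

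Joining strong sites at most 12500 bp apart gave 15 groups that held 32 sites, 6.02% of the 532. The same step gave 10 groups with 3.77% of sites in the class strong for HNF4A only and 13 groups with 3.76% in the larger class strong for FOXA2 only. In the largest class, strong for neither, it gave 25 groups with 4.67%. At 5 kb the shares of sites in groups were 4.70%, 1.89%, 1.16% and 2.75% in the same order. At 25 kb the share was still highest for strong sites, 9.02% against 7.55%, 6.36% and 8.43%. With wider joining the class strong for neither came first, and at 100 kb the class strong for HNF4A only also exceeded strong sites. At 50 kb the share was 13.3% for strong sites, 10.4% for HNF4A only, 9.39% for FOXA2 only and 14.1% for neither, and at 100 kb it was 17.5%, 19.2%, 14.0% and 20.8%. The counts at short distances are small and no test was made on them. Another 4 groupings of pairs were single sites, in which 1 peak was used in 2 pairs.

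Chromosome 5 held 5 of the 15 groups, beside 38 of the 536 strong pairs (7.09%). The first 2 of these groups lay in the same stretch of 57.8 kb and were kept apart by the joining distance of 12500 bp. No test of groups by chromosome was made. The first spanned chr5:90860052-90877010 with 3 strong pairs whose HNF4A scores were 36, 57 and 80 and FOXA2 scores 26, 49 and 37. The second, chr5:90914643-90917852, held 2 pairs with HNF4A scores of 75 and 48 and FOXA2 scores of 34 and 35. All 5 lay within 57.8 kb, and other peaks stood between them, among them a FOXA2 peak of score 50 beside an HNF4A peak of score 30 that missed the HNF4A threshold. The other groups of chromosome 5 were pairs of sites at chr5:73040167-73044672, chr5:111898545-111900255 and chr5:123646412-123651882, with HNF4A scores of 33 to 47.

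Chromosome 15 held the tighter of the 2 groups with 3 strong pairs, within 3.96 kb at chr15:3197345-3201305. Their HNF4A scores were 38, 44 and 57, and their FOXA2 scores 26, 60 and 51. Only 44 bp separated the first 2 sites, the smallest gap in the set. The same 1 Mb window held 6 strong sites over 250 kb, the most of any window. The strongest of the 6 for HNF4A, chr15:3220754-3221185, had a score of 90 beside a FOXA2 score of 27. A second group on the chromosome, chr15:7117184-7118475, joined pairs with scores of 58 and 37 and of 77 and 77.

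**Figure D4:**
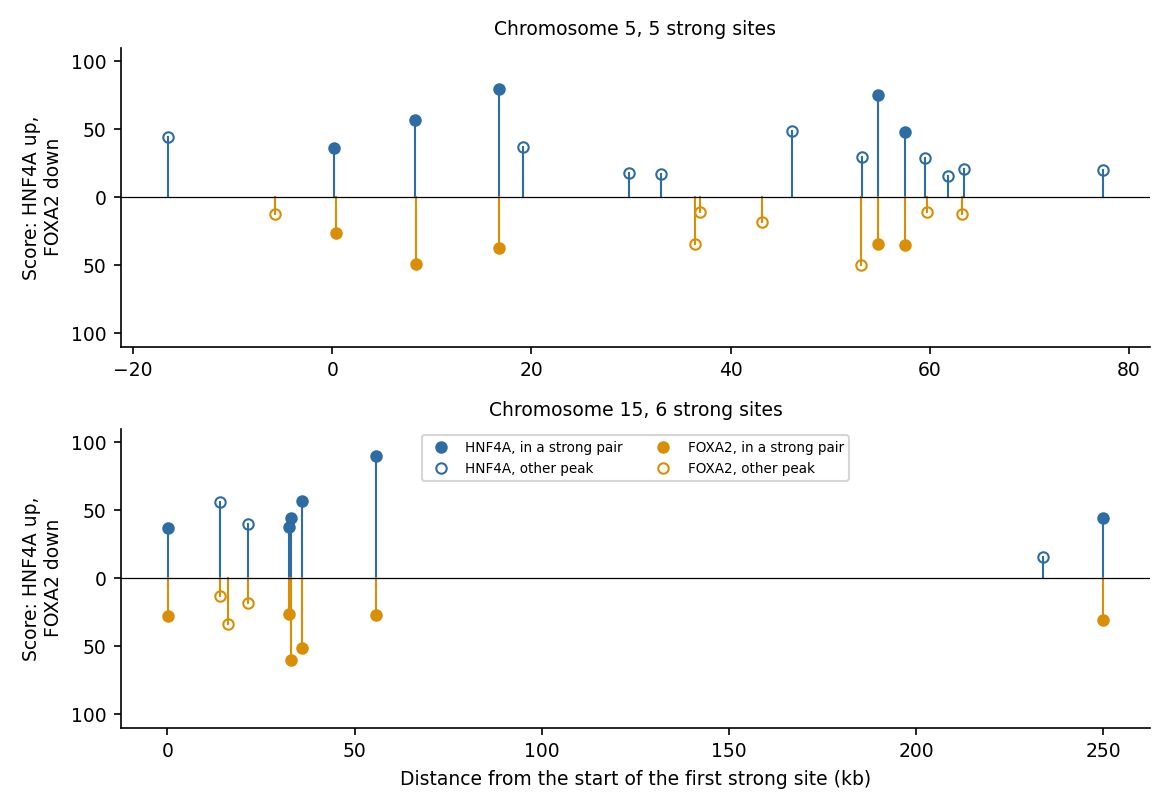
Peaks around the strong sites of the chromosome 5 and chromosome 15 windows, by distance in kb from the start of the first strong site; HNF4A scores point up and FOXA2 scores down. Filled circles are peaks of strong pairs and open circles other peaks. On chromosome 5 the 5 strong sites lie within 57.8 kb, and on chromosome 15 the first 5 of 6 lie together with the sixth near 250 kb.

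The remaining groups were 2 sites each. At chr3:57145254-57148647 the FOXA2 scores were 25 and 127, the widest contrast within a group. At chr6:117247942-117249933 the HNF4A scores were 95 and 67. On chromosome 12 there were groups at chr12:7984099-7985619 and chr12:92933085-92935137, each with 1 HNF4A score near 80 or above (86 and 78) and 1 below 50. Others were at chr4:62814993-62818507, chr10:7806926-7816166 and chr16:24222100-24229517, and 1 was on chromosome 18. In each of the 15 groups every site had its own HNF4A and its own FOXA2 peak.

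Over larger distances, strong sites fell in 438 windows of 1 Mb, and 74 of these held 2 or more. Windows were counted for strong sites only, so these counts do not set them apart from other classes. After the chromosome 15 window, the fullest were on chromosome 16 (5 sites over 482.9 kb from position 23028939) and on chromosome 5 (the 5 sites above). On chromosome 16 the HNF4A scores were 35 to 57 and the FOXA2 scores 22 to 49, so the window held many sites of moderate score. The widest autosomal stretch between neighbouring strong sites was 32374 kb on chromosome 17.

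Every autosome carried strong pairs, from 14 on chromosome 17 to 42 on chromosome 1. As a share of the overlapping pairs kept on each, they ranged from 13.0% (8.69 to 19.1%) on chromosome 11 to 25.9% (18.6 to 34.9%) on chromosome 15, around 18.9% (17.5 to 20.4%) for all autosomes. The interval of each of the 19 autosomes held the autosomal share. These extremes were picked from 19 values, and no autosome stood apart by more than counting error.

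Few strong pairs lay on the X chromosome. There were 2 among 35 overlapping pairs kept, 5.71% (1.58 to 18.6%). They lay at chrX:100742132-100742537 (scores 73 and 46) and at chrX:9816545-9817012 (34 and 27), with 90925 kb between them. Of the 35 X pairs, 5 had a strong FOXA2 peak, 14.3% (6.26 to 29.4%), against 43.5% (41.6 to 45.3%) on autosomes. Strong HNF4A peaks were in 13 of the 35, 37.1% (23.2 to 53.7%), against 37.4% (35.6 to 39.2%). The wider lists were lower on X for both factors. Away from input regions, 9.86% of 142 X peaks of FOXA2 (5.96 to 15.9%) and 14.9% of 121 X peaks of HNF4A (9.62 to 22.3%) reached the thresholds, against 26.1% and 25.7% of all autosomal peaks. The cause of the lower scores on X was not tested. With looser scores of 25 and 17 the strong share on X was 34.3% (20.8 to 50.8%), beside 37.8% (36.0 to 39.6%) on autosomes. With stricter scores of 45 and 30 it was 2.86% (0.51 to 14.5%), beside 6.70% (5.83 to 7.68%).

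**Figure D5:**
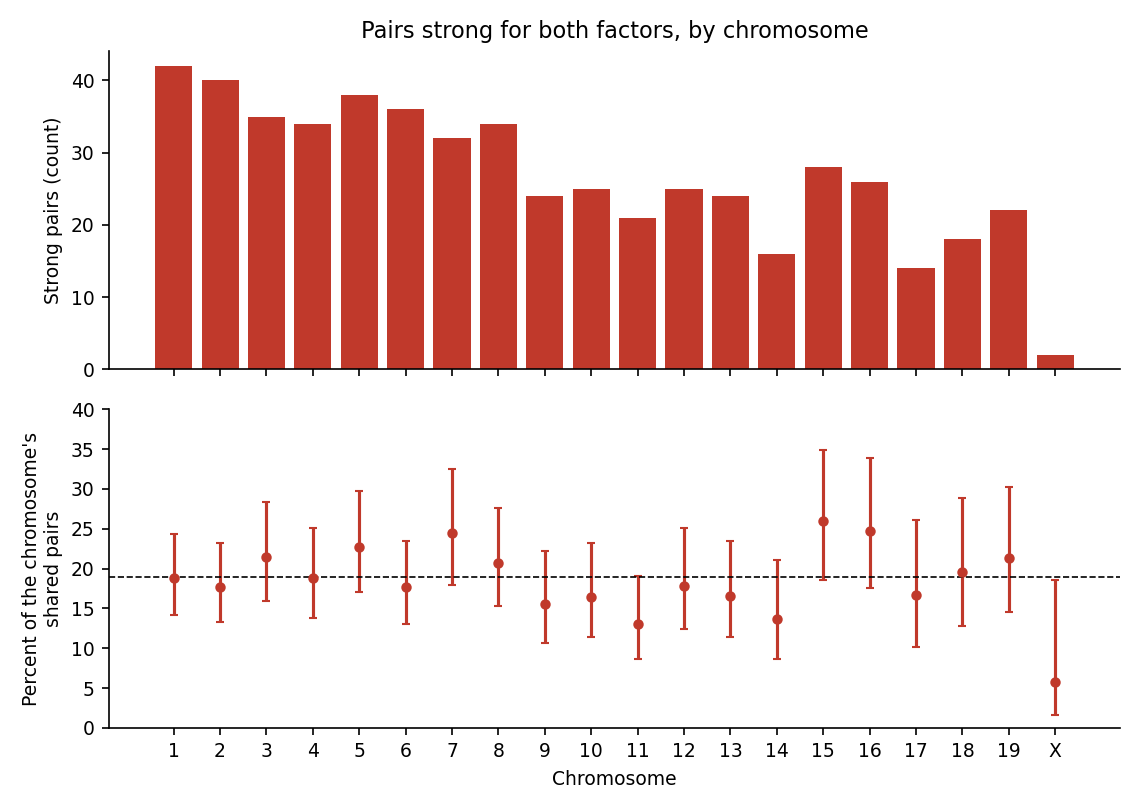
Top, number of strong pairs per chromosome. Bottom, strong pairs as percent of the chromosome's overlapping pairs with 95% Wilson intervals, and the autosomal share of 18.9% as a dashed line. The 19 autosomal intervals cross the line and the X value is 5.71%.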

How the data were processed

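The 3 deposited lists give the position of each region and a whole-number score, called by the authors separately for each library, with coordinates on mm9, per the submitters' processing notes. No source used here names the aligner, peak caller, threshold or score definition, and the depth of the libraries is unknown. Positions were read as 1-based, a chromosome prefix was removed, and a closing line without a region was skipped. Every HNF4A and FOXA2 peak sharing at least 1 bp formed a pair. Pairs within 10 kb of an input region were dropped, and the others were classed by the score thresholds of 33 and 22. Neighbours were all peaks of either list not touching the pair. Differences of shares carry 95% intervals combined from the Wilson intervals.

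The pair rule, offsets, groups and neighbours were tested on simulated data with planted answers. Members, thresholds and settings were chosen with earlier results of these data known. Regions were named by rule: the 10 pairs with the highest lower percentile, the highest score for each factor, the 3 smallest and largest offsets, and the groups within 12500 bp. Others, chosen after their values were seen, are the most crowded and most isolated pairs, the fullest windows and the X pairs. Distances to start sites, motifs and gene lists, also planned, were not analysed here. Python 3.11.15, numpy 2.4.6, pandas 2.3.3 and matplotlib 3.10.9 were used.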

Additional observations from a re-analysis of the deposited data

How the results depend on the processing

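Of 73 values recomputed under other settings for 12 results, 57 stayed within the interval of the value reported, or within 1.5 times a count. Direction was checked only for the differences between classes in the share within 50 bp, and none of these changed direction. The score thresholds moved most. With scores of 45 and 30 there were 190 strong pairs in 5 groups, and with 25 and 17 there were 1077 in 59 groups. Shares of overlapping pairs moved likewise, to 6.70% and 37.8% on autosomes, 4.97% and 33.5% on chromosome 11, and 8.33% and 43.5% on chromosome 15. On the X chromosome the stricter scores gave 2.86% and the looser 34.3%, both below the autosomal value, with intervals that hold it. Joining at 50 kb gave 34 groups of pairs, against 19 at 12500 bp. A neighbour was found for 42.0% at 5 kb and for 86.9% at 50 kb. Pairs with both peaks at most 500 bp wide had a median offset of 39.5 bp, and 63.2% were within 50 bp. The difference from pairs strong for FOXA2 only was 5.02 points at the stricter scores (-3.25 to 13.1), an interval that includes 0. Settings added after seeing the data were centred offsets, single counting of overlapping pairs and the recomputed differences between classes. The planned start-site and motif settings were not run. No paired analysis was possible because each group has 1 library.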

Other observations

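The peaks beside strong pairs scored above their lists as a whole. Within 12500 bp of the 536 strong pairs lay 421 different HNF4A peaks with a median score of 25, of which 32.1% (27.8 to 36.7%) reached the HNF4A threshold. In the same space lay 222 FOXA2 peaks with a median score of 17, of which 31.5% (25.8 to 37.9%) reached the FOXA2 threshold. These neighbours include peaks of other strong pairs, since 32 strong sites lay within 12500 bp of another. The shares are thus partly set by the choice of members. In the full lists the median scores were 23 and 15, and 25.6% of each list reached its threshold. Around pairs strong for neither factor the medians were also 25 and 17, and the shares were 29.8% (26.3 to 33.5%) and 34.8% (30.1 to 39.8%). Strong pairs numbered 1.16 times the 460.2 that the shares of strong HNF4A and strong FOXA2 peaks among overlapping pairs would give if multiplied. This is a description of the scores that chose the pairs.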
